A study of Homo sapiens with 6 samples.

Results

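MHC class I molecules display peptides from a cell's own proteins at its surface, where CD8 T cells and NK cells read them. The peptides are cut by the proteasome, carried into the endoplasmic reticulum by the TAP transporter and loaded onto a heavy chain paired with beta-2 microglobulin. Interferons are known to raise many genes of this route in epithelial and tumour cells, and the transactivator Nlrc5 acts on class I promoters. A set of 10 genes of this route was taken from the count table by exact gene symbol: Nlrc5, the heavy chains H2-K1 and H2-D1, the light chain B2m, the immunoproteasome subunits Psmb8, Psmb9 and Psmb10, the transporter subunits Tap1 and Tap2, and the loading factor Tapbp. All 10 were found among the 22989 genes of the table.

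The 6 libraries were RNA-seq of cells labelled MDA-MB-231 PTX-resistant BCSC, that is, paclitaxel-resistant cells of a human triple-negative breast cancer line, sorted as breast cancer stem cells for high aldehyde dehydrogenase (ALDH) activity. In 3 libraries the cells carried an shRNA against the long noncoding RNA LINC00115 (genotype LINC00115 knockdown, here KD). The other 3 libraries are given the genotype WT, and whether they carried a control shRNA is not given in the sources used here for this experiment. The series sets these groups against each other to ask how LINC00115 acts on stem-like properties. The paper names the shRNA of its knockdown RNA-seq as sh115-2. The labels number the KD libraries sh115-1 to sh115-3, which are taken here as replicate numbers.

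Library totals lay between 36979221 and 38799331 counts. The labels give the organism as Homo sapiens, but the symbols of the table follow mouse style: 30 genes start with H2-, the name of the mouse MHC, 0 start with HLA-, 4650 are named Gm and a number and 1129 end in Rik. Such names belong to mouse genes, so the table conflicts with the labelled human cells and with the human genome named for mapping. Whether the libraries were of mouse cells, or the table is of another experiment, is not given in the sources used here. The description of the cells above therefore rests on the labels alone, and every value below is that of the gene as the table names it. The name LINC00115 was carried by 0 genes of the table used here, so the knockdown itself could not be checked and every direction below rests on the group labels. Genes used to describe the labelled line and the stem-like state were read under the same names, and they do not settle the species. They include Esr1 and Pgr, so not all of them need be high in a triple-negative line. Of 12 listed, 5 were over 10 normalized CPM, with Vim at 3418 ± 49.8 normalized CPM in WT and 3736 ± 79.7 in KD and Cd44 at 911 ± 45.8 and 879 ± 11.03 (SD, n = 3 libraries), and with Krt8, Krt18 and Erbb2 higher in KD (log2 fold changes 0.67, 0.87 and 0.70). Epcam and Pgr had 5 counts or fewer in any library, but Esr1, the estrogen receptor gene whose protein defines hormone-receptor-positive tumours, was called higher, from 24 to 29 counts in WT to 82 to 105 in KD, as was Cdh1, from 1 to 3 counts to 22 to 31. The stem cell gene Aldh1a1 was also called higher, at 0.327 ± 0.119 in WT and 1.16 ± 0.158 in KD, Aldh1a3 had 0 to 4 counts in any library and Prom1 0 to 3. Normalized CPM are counts divided by a library's TMM-scaled total, as edgeR gives them. They are not corrected for gene length, so levels are compared between groups and not between genes.

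All 10 class I genes were higher in KD than in WT, and every KD library lay above every WT library for each of them. The immunoproteasome and transporter genes showed the largest changes, from 3.28-fold for Tap2 to 14.8-fold for Psmb9. The heavy chains, Tapbp and Nlrc5 rose by 1.51-fold to 1.76-fold, and B2m by 1.08-fold. A gene was called where its fold change exceeded 2 and its adjusted p fell under 0.05. By edgeR's quasi-likelihood test 5 of the 10 genes were called higher and 0 lower, against 10.2% called higher and 9.98% called lower among the 13497 genes tested. Without the threshold on fold change, all 10 were higher, while of the genes tested 36.7% were higher and 36.7% lower. Groups that did not overlap, with KD above WT, were found for all 10 genes and for 37.8% of the genes tested. The median log2 fold change was 1.26 over the 10 genes and −0.0061 over all genes tested. No gene was lost to the filter on low counts, and the lowest count of any of them in any library was 76.

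**Figure D1:**
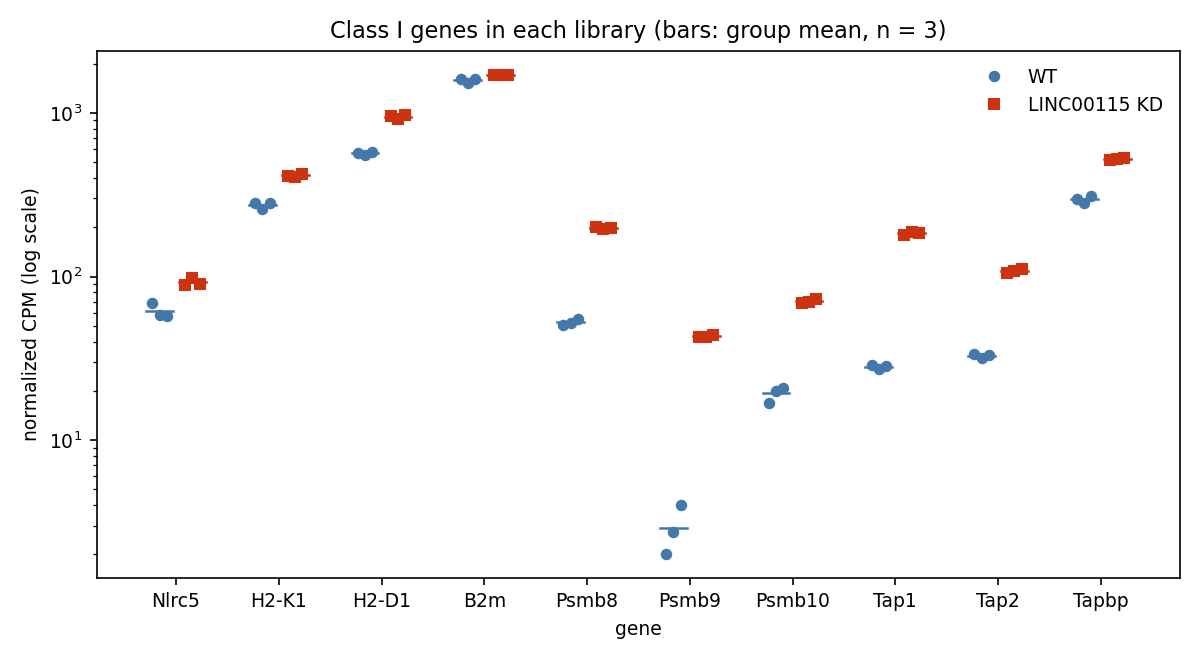
Normalized CPM (log axis) of the 10 class I genes in each of the 3 WT libraries (blue circles) and 3 LINC00115 KD libraries (red squares), with bars at the group means. The KD points lie above the WT points for every gene, with the widest gap for Psmb9 (2.02 to 4.0 against 42.7 to 44.2) and the narrowest for B2m (1515 to 1622 against 1696 to 1712).

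Nlrc5, an NLR family protein that drives transcription of class I genes, was at 68.6, 58.3 and 57.3 normalized CPM in the WT libraries and at 89.2, 98.3 and 90.4 in the KD libraries. The first WT library was the highest of its group, and it still lay below the lowest KD library. The log2 fold change was 0.59 (SE 0.06, adjusted p = 1.86e-11, edgeR's quasi-likelihood test), short of a fold change of 2. In bulk libraries such a difference can come from more cells that express a gene or from more RNA per cell, which cannot be told apart here, and the same holds for every value that follows.

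The classical heavy chains bind the peptide and are the part that T cell receptors see. H2-K1 was at 281, 257 and 281 normalized CPM in WT and at 414, 407 and 424 in KD. H2-D1 was at 572, 554 and 574 in WT and at 960.2, 918 and 967 in KD. Both rose by less than 2-fold, and both differences were far larger than the spread within a group. The log2 fold change was 0.60 for H2-K1 (SE 0.04, adjusted p = 8.50e-17, edgeR's quasi-likelihood test) and 0.74 for H2-D1 (SE 0.03, adjusted p = 4.66e-21). H2-K1 and H2-D1 are close paralogs, and how reads that fit both were counted is not given in the sources used here, so the split between them is uncertain.

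B2m, the light chain with which classical class I molecules normally reach the surface, was at 1604, 1515 and 1622 normalized CPM in WT and at 1696, 1711 and 1712 in KD. Its KD libraries lay closest together of the 10 genes, with a coefficient of variation of 0.534%, and its groups came nearest to each other without overlapping. The log2 fold change of 0.11 (SE 0.03, adjusted p = 0.00104, edgeR's quasi-likelihood test) was the smallest of the 10. The counts of heavy chain per count of B2m therefore moved between the groups. For H2-K1 the ratio was 0.175, 0.170 and 0.173 in WT and 0.244, 0.238 and 0.247 in KD, and for H2-D1 it was 0.356, 0.366 and 0.354 in WT and 0.566, 0.536 and 0.565 in KD. These are changes of 1.41-fold and 1.55-fold in a ratio whose absolute size depends on gene length and was not read.

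The immunoproteasome is the form of the proteasome in which Psmb8, Psmb9 and Psmb10 replace the catalytic subunits Psmb5, Psmb6 and Psmb7, which changes the peptides it releases. Psmb8 was at 50.4, 52.2 and 55.1 normalized CPM in WT and at 202, 195 and 198 in KD, a log2 fold change of 1.92 (SE 0.04, adjusted p = 6.77e-29, edgeR's quasi-likelihood test). Psmb10 was at 16.9, 20.1 and 21.0 in WT and at 69.3, 69.5 and 73.0 in KD, a log2 fold change of 1.87 (SE 0.07, adjusted p = 4.93e-23). The changes of Psmb8 and Psmb10 differed by less than the standard error of Psmb10. Psmb9 was at 2.02, 2.75 and 4.0 in WT, from 76, 104 and 151 counts, and at 42.7, 42.8 and 44.2 in KD, from 1651, 1570 and 1678 counts. The WT libraries spread widely for Psmb9, with a coefficient of variation of 34.2% against 1.95% in KD, but the groups stood far apart. Its log2 fold change of 3.88 (SE 0.12, adjusted p = 4.67e-25) was the largest of the 10 and the 203rd highest among all genes tested.

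**Figure D2:**
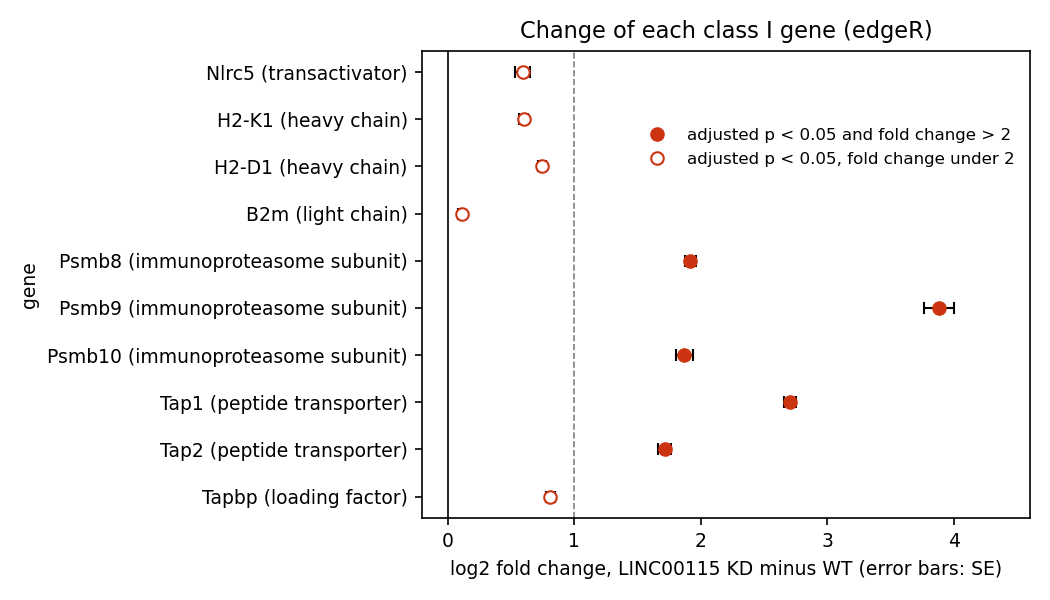
Log2 fold change of each class I gene, LINC00115 KD minus WT, with its standard error (edgeR), in the order in which the genes were first listed. Filled points passed an adjusted p under 0.05 and a fold change over 2 (dashed line), and open points passed the adjusted p only. The filled points are the 3 immunoproteasome subunits and both transporter subunits, between 1.72 and 3.88.

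Of the constitutive subunits that these replace, 2 did not pass the test and 1 fell. Psmb5 had a log2 fold change of 0.040 (SE 0.059, adjusted p = 0.545, edgeR's quasi-likelihood test) and Psmb7 of −0.028 (SE 0.039, adjusted p = 0.528), and Psmb6 fell, with a log2 fold change of −0.38 (SE 0.04, adjusted p = 1.20e-09). The sign of Psmb5 turned with upper quartile scaling (−0.00084). The ratio of counts of each immunoproteasome subunit to its partner within a library is free of scaling between libraries. Psmb8 per Psmb5 was 1.05, 0.966 and 1.02 in WT and 3.88, 3.79 and 3.48 in KD, a 3.67-fold change. Psmb9 per Psmb6 was 0.0184, 0.0245 and 0.0352 in WT and 0.508, 0.487 and 0.514 in KD, a 19.9-fold change. Psmb10 per Psmb7 was 0.0899, 0.10 and 0.103 in WT and 0.371, 0.356 and 0.366 in KD, a 3.74-fold change. All 3 ratios shifted toward the immunoproteasome subunit in every KD library.

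Of 9 ratios computed, none overlapped between the groups, and each had an exact permutation p of 0.1, two-sided (0.1 after Benjamini-Hochberg adjustment over the 9), which is the smallest that 3 libraries against 3 allow. The design thus cannot bring such a test under 0.05.

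Tap1 and Tap2 form the channel that moves peptides into the endoplasmic reticulum. Tap1 was at 28.7, 27.0 and 28.4 normalized CPM in WT and at 179, 187 and 184 in KD, a log2 fold change of 2.71 (SE 0.05, adjusted p = 2.59e-32, edgeR's quasi-likelihood test). Tap2 was at 33.6, 31.8 and 33.3 in WT and at 105, 108 and 110.5 in KD, a log2 fold change of 1.72 (SE 0.05, adjusted p = 1.44e-25). Both subunits rose, but not to the same extent. The counts of Tap1 per count of Tap2 were 0.853, 0.852 and 0.854 in WT and 1.70, 1.73 and 1.66 in KD, a 1.99-fold change with almost no spread in WT.

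In the mouse and human MHC, Psmb9 lies beside Tap1 and Psmb8 beside Tap2. Within these neighbours the ratio of Psmb9 to Tap1 was 0.0703, 0.102 and 0.140 in WT and 0.239, 0.228 and 0.240 in KD, a 2.34-fold change. The ratio of Psmb8 to Tap2 was 1.5, 1.64 and 1.65 in WT and 1.92, 1.80 and 1.79 in KD, a 1.15-fold change. Thus Psmb9 changed more than Tap1 in all 3 KD libraries, and Psmb8 a little more than Tap2. The ratio of H2-K1 to H2-D1 was 0.908 of its WT value, with 0.492, 0.465 and 0.489 in WT and 0.431, 0.444 and 0.438 in KD.

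**Figure D3:**
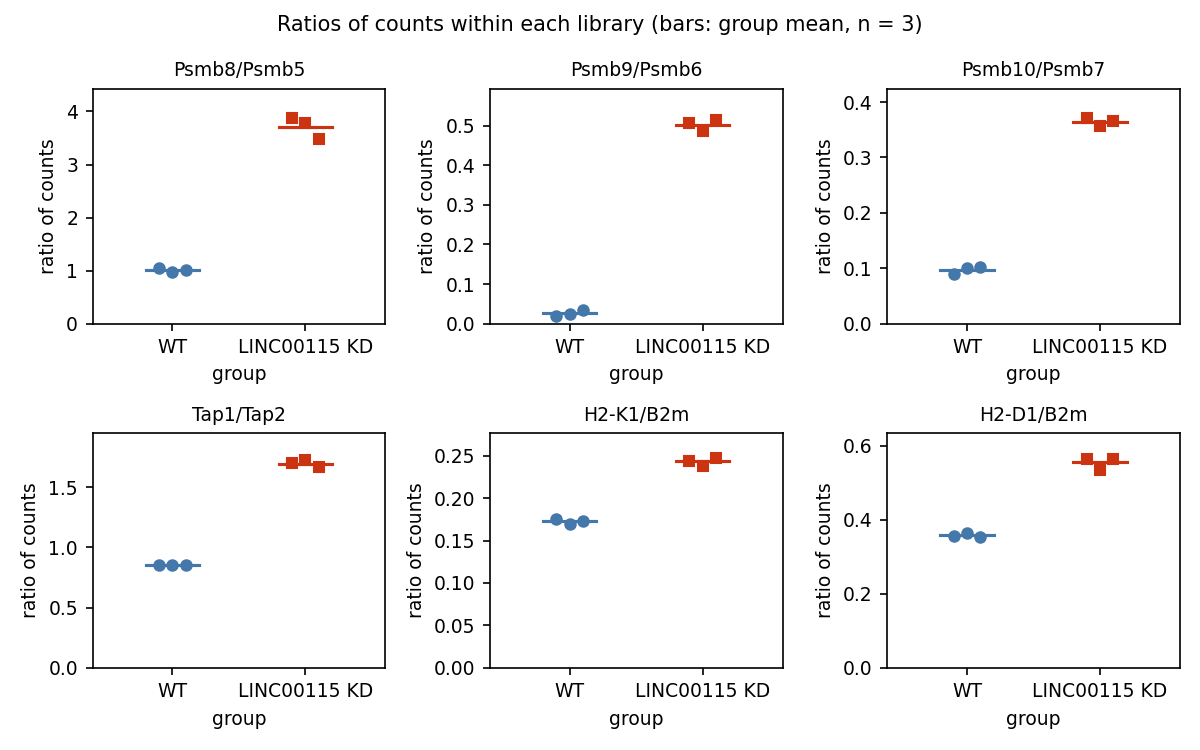
Ratio of counts of the named genes within each library, in 3 WT (blue circles) and 3 LINC00115 KD libraries (red squares), with bars at the group means. Axes start at 0, and the absolute height depends on gene length. All 6 ratios lie higher in KD, from 1.41-fold for H2-K1/B2m to 19.9-fold for Psmb9/Psmb6.

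Tapbp, or tapasin, holds the empty heavy chain at the transporter. It was at 299, 281 and 312 normalized CPM in WT and at 517, 520.2 and 529 in KD, a log2 fold change of 0.81 (SE 0.04, adjusted p = 1.26e-20, edgeR's quasi-likelihood test). Summed over the 10 genes, the level was 2914 ± 101 normalized CPM in WT and 4287 ± 39.2 in KD (SD, n = 3), a 1.47-fold change (exact permutation p = 0.1, two-sided, the smallest possible). B2m alone gave 54.2% of this sum in WT and 39.8% in KD, so the sum mostly reads the genes with the most counts. Within a group the genes did not all follow the same library, although the second WT library was the lowest of its group for 6 of the 10 genes and the third KD library the highest for 7 of 10.

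The same data were read for the other genes of the route, in lists described by their counts and medians. The counts of each list stand beside those of all genes tested. Of these, 10.2% were called higher and 9.98% lower, and without the fold-change threshold 36.7% were higher and 36.7% lower. In a list of nonclassical and class I-like heavy chains, 21 of 31 genes were in the table and 17 could be tested. Of these 17 heavy chains, 8 were called higher and 0 lower, with a median log2 fold change of 0.91. Without the fold-change threshold 11 were higher and 1 lower. H2-T22, a nonclassical chain that gamma delta T cells recognise, rose from 48.4 ± 3.72 to 150.6 ± 3.58 normalized CPM (SD, n = 3), a log2 fold change of 1.64 (SE 0.05, adjusted p = 2.55e-25, edgeR's quasi-likelihood test). H2-Q7 rose from 153, 202 and 148 counts in WT to 889, 508 and 509 in KD (log2 fold change 1.91), and H2-Q10 from 16, 27 and 16 to 109, 113 and 110 counts (2.48). H2-T23, whose product presents leader peptides of other class I chains to NK receptors, was also called (1.29), as were H2-T24 (1.21), H2-Q6 (1.18), H2-Q1 (1.07) and H2-Q9. The call of H2-Q1 was lost without KD replicate 2 (0.94), and that of H2-Q9 when the third KD library was left out (1.23, edgeR adjusted p = 0.118). H2-Q9 was the exception among the 8, since its groups overlapped at 14, 7 and 8 counts in WT and 40, 6 and 69 in KD. The H2-Q genes resemble each other closely, so their separate counts are uncertain. H2-Q4 rose by less than 2-fold (log2 fold change 0.90), as did H2-M3 (0.55) and Hfe, which controls iron uptake (0.73). Cd1d1, which presents lipids, fell, from 6.39 ± 1.32 to 3.24 ± 0.222 normalized CPM (log2 fold change −0.98, adjusted p = 1.20e-05). It was called lower with upper quartile scaling and without the second WT or the second KD library, which made 1 call in the list in place of 0. Mr1 and Fcgrt did not pass the test (0.18 and −0.14).

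Among 15 factors that act with Nlrc5 or upstream of class I promoters, 3 were called higher and 0 lower, and 8 were higher and 6 lower without the fold-change threshold. Over all genes tested, 10.2% were called higher and 9.98% lower, and without that threshold 36.7% were higher and 36.7% lower. The 6 lower factors are a share near that of all genes. Stat2, which carries interferon signals to the nucleus, rose from 52.5 ± 4.35 to 226 ± 5.05 normalized CPM (SD, n = 3), a log2 fold change of 2.11. Irf9, its DNA-binding partner, rose from 49.4 ± 4.24 to 101 ± 2.50 (1.04), and Irf1 from 72.9 ± 4.55 to 137 ± 3.82 (0.91). The call of Irf9 was lost with upper quartile scaling (log2 fold change 0.997) and without the first WT library (0.984). The subunits of the RFX complex, through which Nlrc5 reaches DNA, moved the other way. Rfx5, Rfxap and Rfxank had log2 fold changes of −0.32, −0.23 and −0.61, with adjusted p-values of 0.000233, 0.0176 and 0.000136 (edgeR's quasi-likelihood test), and Creb1 of −0.41. The NF-Y subunits were mixed, with Nfyb lower (−0.45) and Nfya and Nfyc higher (0.30 and 0.73).

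Of 11 interferon receptors, kinases and feedback inhibitors tested, 1 was called higher and 1 lower, shares near those of all genes tested. Without the fold-change threshold 3 were higher and 7 lower, against 36.7% of all genes tested in each direction, with a median log2 fold change of −0.30. The kinase Tyk2 fell from 50.6 ± 4.22 to 20.6 ± 0.484 normalized CPM, a log2 fold change of −1.30 (SE 0.07, adjusted p = 3.66e-18, edgeR's quasi-likelihood test). The feedback inhibitor Socs1 rose from 11.1 ± 0.296 to 24.7 ± 1.58 (1.15), while Socs3, another such inhibitor, fell from 94.3 ± 2.47 to 64.2 ± 4.94 (−0.55). Ifnar1, Ifngr1, Ifngr2, Jak1 and Jak2 fell by less than 2-fold, with log2 fold changes of −0.54, −0.30, −0.80, −0.28 and −0.59, and Ifnar2 rose (0.27).

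Of the 14 constitutive subunits of the proteasome core, 0 were called in either direction (edgeR). At an adjusted p under 0.05 alone 4 were higher, 4 were lower and 6 did not pass, against 36.7% of all genes tested in each direction. Their median log2 fold change was 0.022, with a range from −0.38 for Psmb6 to 0.48 for Psma3. Among 9 activators and assembly factors, 0 were called (edgeR), but 6 were higher and 0 lower without the fold-change threshold, beside the same 36.7% each way. Psme1 and Psme2, which form the interferon-inducible PA28 cap, rose from 80.0 ± 6.74 to 146 ± 3.62 and from 59.7 ± 3.79 to 105 ± 0.709 normalized CPM (log2 fold changes 0.87 and 0.82), and the related Psme3 had a log2 fold change of 0.85. Pomp, a maturation factor of the core, did not pass the test (0.065, adjusted p = 0.202). Psmg3, an assembly chaperone, lay just under the threshold at a log2 fold change of 0.9992, and was called with DESeq2's size factors or test, with 10 counts required in every library, and without WT replicate 1 or 3 or KD replicate 2.

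Peptide trimming enzymes went both ways. Erap1, which shortens peptides inside the endoplasmic reticulum to fit class I, was the only one called of 9, rising from 46.7 ± 1.53 to 125 ± 3.27 normalized CPM (log2 fold change 1.42, SE 0.05, adjusted p = 4.64e-24, edgeR's quasi-likelihood test). Without the fold-change threshold 4 were higher and 3 lower, near the 36.7% of all genes tested in each direction. The 1 call of 9 is likewise near the 10.2% of all genes called higher. The cytosolic aminopeptidase Npepps fell (−0.81), as did Lnpep (−0.36), while Thop1, Blmh and Nln rose by 0.53 to 0.57 on the log2 scale.

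The general chaperones that share the loading complex with tapasin were lower in KD. In a list of 16 loading and quality control genes, 0 were called in either direction (edgeR), while 10 were lower and 4 higher at an adjusted p under 0.05. Over all genes tested, 36.7% were lower and 36.7% higher at that level. The list had a median log2 fold change of −0.22. Calreticulin (Calr) fell from 1028 ± 29.9 to 593 ± 13.8 normalized CPM (log2 fold change −0.79, SE 0.03, adjusted p = 7.83e-22, edgeR's quasi-likelihood test). Pdia3, the thiol oxidoreductase bound to tapasin, fell from 1369.7 ± 21.2 to 801 ± 23.3 (−0.77), and Canx, the first chaperone of new heavy chains, from 1308 ± 28.4 to 1062 ± 19.3 (−0.30). Tapbpl, a relative of tapasin that edits peptides, rose from 12.4 ± 1.43 to 21.3 ± 0.308 (0.77). Hspa5, a major chaperone of the compartment, did not pass the test (0.017, adjusted p = 0.609).

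**Figure D4:**
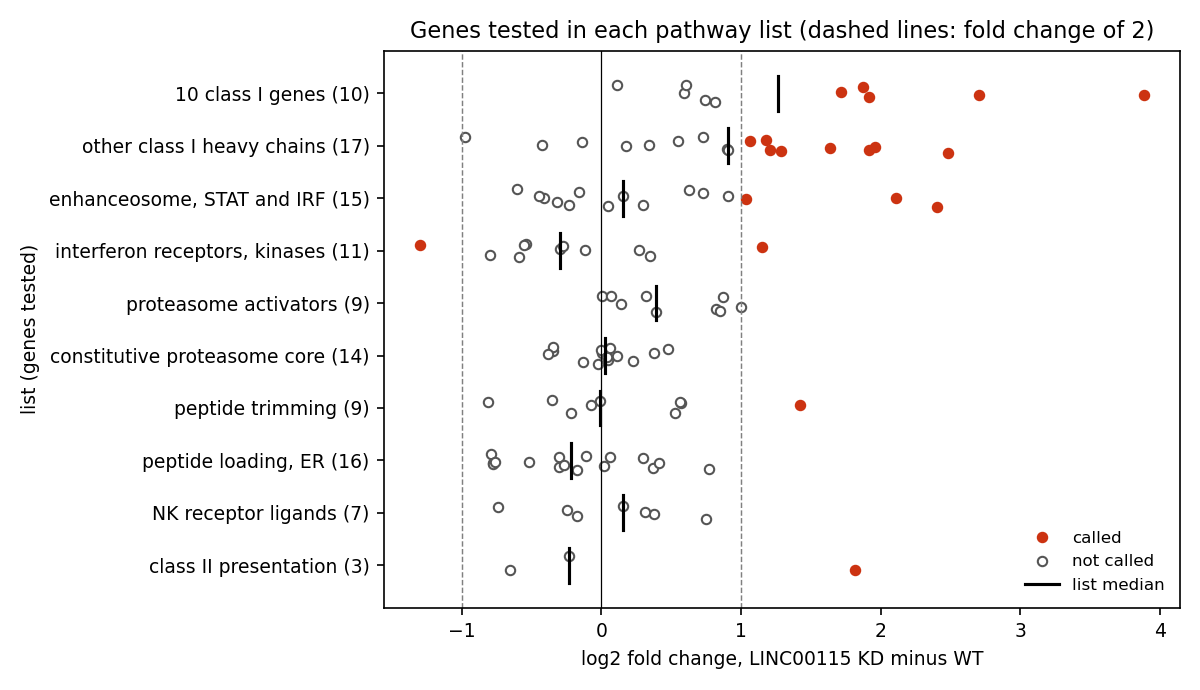
Log2 fold change, LINC00115 KD minus WT, of every gene tested in each list, with called genes filled, other genes open and the list median as a black bar. Dashed lines mark a fold change of 2. Among the lists drawn, the 10 class I genes and the other class I heavy chains have the highest medians (1.26 and 0.91), and the interferon receptor, class II, loading and trimming lists have medians under 0 (−0.30, −0.23, −0.22 and −0.013).

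Genes of MHC class II, which professional antigen-presenting cells use, mostly had few counts. Of 14 listed, 12 were in the table and 3 could be tested. The invariant chain Cd74 was called higher, from 46, 29 and 30 counts in WT to 127, 94 and 151 in KD (log2 fold change 1.82), Ifi30, a lysosomal reductase, fell from 66.7 ± 0.177 to 42.2 ± 1.33 normalized CPM (−0.66) and H2-DMa did not pass the test. In the fit reported, 10.2% of all genes tested were called higher and 9.98% lower. Without the filter on low counts, 3 genes of this list were called higher. The number was also 3 without WT replicate 1 or 3 or KD replicate 2. It was 4 without WT replicate 2 and 2 without KD replicate 1. The calls added were of H2-Aa, H2-Ab1 and Ciita, which had 0 to 6 counts in the WT libraries. The shares of all genes called under these settings are not given here. H2-Aa had 0, 0 and 1 counts in WT and 24, 6 and 11 in KD, and the class II transactivator Ciita had 3, 6 and 1 against 17, 5 and 12. Among 7 ligands of NK cell receptors tested, 0 were called (edgeR). Without the fold-change threshold 3 were higher and 2 lower, against 36.7% of all genes tested in each direction. Among these ligands Ulbp1 was lower (log2 fold change −0.74) and Clec2d higher (0.75).

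Since leukocytes and lung epithelium also express class I genes, their markers were read in the same libraries. Of 20 leukocyte markers, 15 were in the table, and their summed level was 35.1 to 35.5 normalized CPM in WT and 97.7 to 108 in KD. Of the 5 tested, 3 were called higher, namely S100a8 (32.96 ± 1.25 to 95.2 ± 6.33), Lyz2 (0.795 ± 0.626 to 6.58 ± 0.199) and S100a9. Over all genes tested, 10.2% were called higher and 9.98% lower. Laptm5, not tested in the main fit, went from 31, 21 and 6 counts in WT to 1, 5 and 10 in KD. It was called lower without the filter on low counts and without WT replicate 3 or KD replicate 3. The defining pan-leukocyte gene Ptprc had 5 to 12 counts in WT and 8 to 13 in KD, and of the 15 markers 1, the T cell gene Cd3e, had 0 in every library. The T cell gene Cd8a had at most 1 count. Of 10 lung epithelial markers, 9 were tested and all 9 were called higher, with a summed level of 1.78 to 2.07 in WT and 73.4 to 83.7 in KD, and Scgb1a1 and Sftpc were at 0 counts in WT and at 43.6 ± 4.68 and 14.7 ± 1.13 normalized CPM in KD. The summed level of 8 endothelial markers was 1.19 to 1.83 in WT and 57.6 to 60.3 in KD, almost all of it Cdh5 (57.8 ± 1.45 in KD), while Pecam1 had 6 to 19 counts in any library. Of the 4 endothelial markers tested, Cdh5 was called higher and Tie1 lower, from 24, 18 and 23 counts in WT to 3, 13 and 5 in KD, a call that was lost without WT replicate 1 or 3 or KD replicate 1 or 3. The summed level of each list moved with the class I genes, that of the leukocyte list mostly through S100a8. Single markers did not all follow, and Ptprc, Itgam, Fcer1g, Pecam1 and Vwf overlapped between the groups. The part of these levels in the class I result was not tested.

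The genes whose profile across the 6 libraries lay nearest to that of H2-K1, by the root mean square difference of mean-centred log2 levels, were Pdgfa, Ptdss1, Csrp1, Rptor and Mideas, at 0.024 to 0.028 log2 units. Their log2 fold changes lay between 0.58 and 0.64, close to the 0.60 of H2-K1. With 6 libraries in only 2 groups, this measure mostly reads the size of the group difference.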

How the data were processed

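The authors trimmed adapters, mapped reads with HISAT2 (to hg19 in the methods, while the submitters' processing notes name hg38, featureCounts and DESeq2) and deposited 1 table of raw counts per gene for 22989 genes, with 0 blank names and 0 unused value columns. The annotation, use of strand and treatment of shared reads are not given in the sources used here. Columns were assigned to samples by their descriptions.

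Counts were tested over the whole table in R 4.3.3 with edgeR 4.0.16: filterByExpr (minimum count 10, total 15), TMM, quasi-likelihood test on the group, Benjamini-Hochberg adjustment over 13497 genes. SE is the log2 fold change divided by the root of F. The common biological coefficient of variation was 5.21%. Ratios given or drawn per library are plain quotients of counts. Their fold changes and exact permutation tests (scipy 1.17.1) used log2 ratios of counts plus 0.5. The scripts were tested on simulated counts. Alternatives were other scalings and filters, DESeq2 1.42.0, each replicate left out, the replicate number as a block, and no fold-change threshold.

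The chi-square per degree of freedom of library pairs was 3.88 to 7.60 within groups and 206 to 226 between them, so no library was a copy. The labels do not say whether replicates were separate cultures, so p-values measure the spread between these samples. At these totals, a count of 0 allows up to 3 counts, counting error only.

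The genes and lists were chosen with earlier results of these data known. The rule for named list genes was up to 3 called genes each way per list whose higher group had 100 or more counts in each library, plus the paired genes. Other list genes were named after their values were seen. Some genes of the lists are counted but not reported here by name.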

Additional observations from a re-analysis of the deposited data

How the results depend on the processing

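The 5 class I genes called higher and the 0 called lower were the same numbers under every scaling, filter and tool tried and with each replicate left out (range 5 to 5), and only dropping the fold-change threshold moved them, to 10 higher. That setting also moved the genes called over the 9 pathway lists from 14 higher and 1 lower to 44 and 34. These lists held 17, 16, 14, 9, 9, 15, 11, 3 and 7 genes tested. Of all genes tested, 10.2% were called higher and 9.98% lower, and 36.7% each way without the threshold. Higher list genes numbered 13 to 16 under the other scalings, filters and tools and 13 to 18 with each replicate left out, and lower list genes became 2 with upper quartile scaling and ranged from 1 to 2 with each replicate left out. The log2 fold change of Psmb9 ranged from 3.68 to 4.18 over all alternatives and that of B2m from 0.069 to 0.13, with a highest adjusted p of 0.0343. Psmb5 turned to −0.00084 with upper quartile scaling, −0.018 without WT replicate 1 and −0.00063 without KD replicate 3 (−0.018 to 0.077 with each replicate left out), and Psmb7 to 0.0048 without KD replicate 1 (−0.064 to 0.0048), none past the test. The scalings moved the median of all genes to between −0.047 and 0.00073 on the log2 scale. Same-numbered libraries did not deviate together (correlations of 0.042, −0.015 and −0.021), so the numbers were not taken to pair them, and the fit with the replicate block called 5 class I genes and 14 higher and 1 lower list genes, and changed no call named here. List genes with few counts, among them 9 of the 12 class II genes in the table, fell under the low-count filter and were not tested in the fit reported.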
